A study of Mus musculus with 18 samples.

Results

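Adar, Adarb1, Dhx9, Qki, Mbnl1, Mbnl2, Hnrnpl and Khdrbs1 encode RNA-binding proteins known to promote or restrain back-splicing, and were chosen by name as regulators of circRNA biogenesis. They are 8 of the 55401 gene IDs counted by mRNA-seq, and all 8 had enough reads to be tested. CircRNAs inside their own genes were also taken, which gave 31 of the 16171 circRNAs in the 12 circRNA lists. All samples are of the mouse fibroblast line NIH/3T3, which derives from embryos, either wild type (WT) or with a CRISPR-Cas9 knockout (KO) of XPO4, an exportin that carries cargo out of the nucleus. The KO is a cell line in which no separate clones are named, and no agent was added to either genotype. mRNA-seq had 3 libraries of each genotype. CircRNA-seq of RNase R-treated RNA had 2 libraries of each genotype from nuclear (Nuc), cytoplasmic (Cyto) and total RNA.

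A circRNA forms when a splice donor joins an acceptor upstream of it, a reaction called back-splicing. Proteins that bind the introns on both sides of the exons and pair with each other, such as QKI, bring the ends together. Base-paired inverted repeats in those introns do the same, and they are edited by the ADAR enzymes or unwound by DHX9, both of which are known to lower circRNA output. MBNL1 has been described to bind its own pre-mRNA and to promote a circRNA from its second exon. HNRNPL and KHDRBS1 (Sam68) are regulators of splicing for which effects on back-splicing have been described.

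The direction of every mRNA comparison rests on the sample titles. Inside each mRNA-seq table the column heading names an alignment of the other genotype, and if those headings were right, every mRNA difference given here would change sign. Xpo4 itself does not settle this. It had 657, 614 and 685 reads in the libraries titled WT and 712, 504 and 687 in those titled KO, which overlap (log2 fold change 0.18 ± 0.11 SE, adjusted p = 0.193, edgeR quasi-likelihood test), and the reads over the edited part were not analysed here. The mRNA-seq libraries held 16974062 to 22057323 counted fragments. The lists held 2189 to 4383 back-splice junction reads in Nuc, 50629 to 81941 in Cyto and 50341 to 58165 in total RNA. Of 11 fibroblast markers, all were detected, with a summed level of 2784 to 2857 FPKM in WT against 2832 to 2891 FPKM in KO. FPKM is the fragment count of a gene scaled by its exonic length and by the depth of the library. At an adjusted p under 0.05 (edgeR), 5 of these markers were higher in KO and 5 lower, beside 25.1% and 23.6% of all tested genes. The higher ones were Thy1 (log2 fold change 0.86), S100a4 (0.80), Vim (0.35), Col1a2 (0.16) and Pdgfrb (0.14). The lower ones were the matrix proteoglycans Dcn (-1.78) and Lum (-1.58), and Col1a1 (-0.34), Fn1 (-0.21) and Pdgfra (-0.21). The 7 blood cell markers summed to 0.327 to 0.408 FPKM in WT and 0.994 to 1.13 FPKM in KO, with Hbb-bs, Cd3e and Ms4a1 at 0 in all 6 libraries. Against the sum, Ptprc was lower in KO (mean 0.281 FPKM in WT and 0.0816 in KO). Lyz2 and Hba-a1 were higher, on at most 13 reads per library. The 4 epithelial markers summed to 2.60 to 2.98 FPKM in WT and 0.301 to 0.672 FPKM in KO. Most of this was Krt14 (log2 fold change -2.83), and Epcam was at 0. In samples of a single cell line, such low levels do not show that blood or epithelial cells were present. Whether other cells had a part in the results below was not tested. Fewer cells of a type cannot be told apart from less RNA per cell.

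The junctions of the circRNAs on which the results turn are printed here, 15 bases to each side, read from the GRCm38 genome on the transcript strand. Lower case marks the end of the last exon (the donor side) and capitals mark the start of the first exon (the acceptor side), to which it is joined. Numbers after the gene rank the circRNAs of a gene by reads over the 12 libraries.
circMbnl1-1: tttgattcactgaaaGTTGGTACTAAGAAG
circMbnl2-1: tttgattccctcaagAATTTAAAGAGGACG
circMbnl1-3: catttctcccaccagGTGTGTCGAGAGTAC
circMbnl2-2: cgttcatccccacagGTATGCAGGGAGTTC
circMbnl1-2: acagacagactggagGGTCGTTGCTCCAGA
circMbnl2-3: gccacagccaatcagGTATGCAGGGAGTTC
circDhx9-1: gttccagctgttgggGTGTGAAGAAGACAC
circDhx9-3: attgttgtgacacagACTCTAGAGTCAGAA
circDhx9-4: ctctcaaagcagaagGTGTGAAGAAGACAC
circKhdrbs1-1: aagttcctagtaccaAAATTGAGAAGATTC
circKhdrbs1-2: acatacgaagattatGATATGATGGATGAT
circKhdrbs1-3: tccacctgttcccagAAATTGAGAAGATTC
circQki-1: agggataaaaagaagAAATTAGCAGAGTAC
circAdar-1: tcctcacgaacccaaATTTAAATTCCAGGT
The muscleblind genes Mbnl1 and Mbnl2 gave circRNAs from matching exons. In each gene the circRNA with the most reads was exon 2 alone, the exon that holds the start codon, and its donor sides matched at 12 of 15 bases and its acceptor sides, which lie before the coding region, at 6 of 15. In circMbnl1-3 and circMbnl2-2, each of 3 exons, 10 of 15 bases matched on either side. circMbnl2-2 and circMbnl2-3 use 1 acceptor with different donors, and so do circDhx9-1 and circDhx9-4, and circKhdrbs1-1 and circKhdrbs1-3.

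Which regulators were expressed, and did their mRNA differ with XPO4? All 8 were expressed, over a wide range of levels. By mean FPKM in WT the order was Hnrnpl (106), Khdrbs1 (57.4), Dhx9 (39.4), Mbnl2 (14.6), Qki (14.1), Mbnl1 (13.9), Adar (8.06) and Adarb1 (1.64). The libraries of neighbours in this order overlapped only between Mbnl2 and Qki and between Qki and Mbnl1. In KO, Mbnl1 came before Mbnl2 and Qki, and no neighbours overlapped. Mbnl1 mRNA was higher in KO, and Adar, Dhx9, Khdrbs1, Qki and Hnrnpl mRNAs were lower. Thus 6 of 8 passed an adjusted p of 0.05 (edgeR quasi-likelihood test, Benjamini-Hochberg over all genes), 1 higher and 5 lower, beside 48.7% of the 14688 genes tested (25.1% higher and 23.6% lower). The median log2 fold change was -0.16 over the 8 genes and -0.0029 over all tested genes. The changes were small, at most 1.40-fold.

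**Figure D1:**
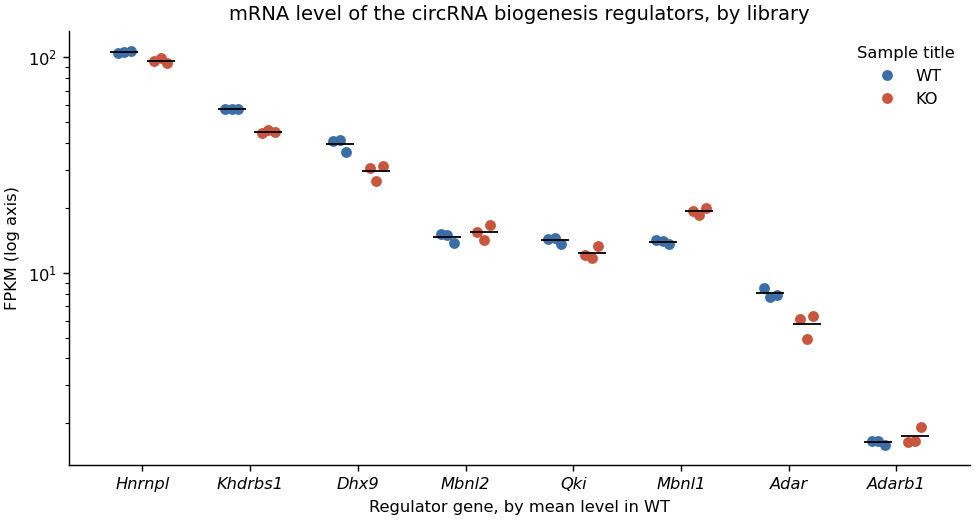
Each point is the FPKM (log axis) of a regulator in 1 mRNA-seq library, in blue for the 3 titled WT and in red for the 3 titled KO, with the mean as a line. Mbnl1 is the gene with all KO points above all WT points, the points of Mbnl2 and Adarb1 overlap, and the KO points of the other 5 lie below.

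Adar encodes the widely expressed adenosine deaminase that turns adenosine to inosine in double-stranded RNA. Its level was 8.53, 7.74 and 7.91 FPKM in WT and 6.07, 4.92 and 6.32 FPKM in KO. Every KO library lay below every WT library, a pattern without overlap that 57.7% of tested genes showed in either direction. The log2 fold change was -0.48 ± 0.086 (SE, n = 3 per genotype, adjusted p = 0.000439, edgeR), or 1.40-fold lower. Adar lies at chr3:89715022-89753446 (GRCm38, plus strand), where the median log2 fold change of the other tested genes of chromosome 3 was 0.16. Of its exonic bases, 16.8% overlap Chrnb2 on the opposite strand, and unstranded counting cannot tell such reads apart. Adarb1, which encodes the editing enzyme ADAR2, was the lowest of the 8, with 1.66, 1.66 and 1.59 FPKM in WT and 1.64, 1.66 and 1.92 FPKM in KO. These overlapped (log2 fold change 0.087 ± 0.091, adjusted p = 0.449). Chromosome 10, which holds Adarb1 at chr10:77290726-77418270, had the largest median shift among the chromosomes of the regulators, 0.45. The ratio of Adar to Adarb1 FPKM within a library was 4.92 ± 0.25 (SD, n = 3) in WT and 3.32 ± 0.37 in KO, without overlap (exact permutation test, two-sided, p = 0.1, which no comparison of 3 against 3 can go below).

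Dhx9 encodes a helicase that unwinds double-stranded RNA, including paired Alu-type repeats. It stood at 40.7, 41.1 and 36.5 FPKM in WT and at 30.6, 26.7 and 31.4 FPKM in KO. No KO library reached the lowest WT library. The log2 fold change was -0.42 ± 0.071 (adjusted p = 0.000295, edgeR), or 1.34-fold lower. The other 884 tested genes of chromosome 1, where Dhx9 lies at chr1:153455758-153487660, had a median of -0.21, and the 91 within 10 Mb of it -0.22. Whether the shift of the chromosome has a part in the change of Dhx9 was not tested. The ratio of Dhx9 to Adar FPKM within a library was 4.90 ± 0.37 (SD, n = 3) in WT and 5.14 ± 0.25 in KO. These overlapped (exact permutation test, two-sided, p = 0.4).

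Qki encodes the STAR-family protein that is known to drive circRNA formation in epithelial-mesenchymal transition. Its level was 14.4, 14.5 and 13.5 FPKM in WT and 12.1, 11.7 and 13.3 FPKM in KO. The groups lay close together without overlap. The log2 fold change was -0.20 ± 0.062 (adjusted p = 0.0177, edgeR), and 61.9% of all tested genes had a change at least as large. The call was lost without KO replicate 1, WT replicate 1 or WT replicate 2 (adjusted p = 0.0796, 0.0644 and 0.0783).

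Mbnl1, the muscleblind protein that shifts splicing from fetal to adult patterns, was the regulator that went up. It had 14.2, 14.0 and 13.5 FPKM in WT and 19.4, 18.6 and 19.99 FPKM in KO. The lowest KO library was well above the highest WT library. The log2 fold change was 0.47 ± 0.054 (adjusted p = 1e-05, edgeR), or 1.39-fold higher, and it held under every alternative (adjusted p at most 0.000254). The median of the other tested genes of chromosome 3, where Mbnl1 lies at chr3:60472830-60629750, was 0.16, and of the 88 within 10 Mb 0.19. Its paralog Mbnl2 had 15.1, 15.04 and 13.8 FPKM in WT and 15.4, 14.2 and 16.6 FPKM in KO, which overlapped (log2 fold change 0.072 ± 0.068, adjusted p = 0.400). Without KO replicate 2, which had the lowest KO value, Mbnl2 was 0.14 higher (adjusted p = 0.0371). The ratio of Mbnl1 to Mbnl2 FPKM was 0.942, 0.932 and 0.983 in WT and 1.26, 1.31 and 1.203 in KO. All KO libraries had more Mbnl1 than Mbnl2 and all WT libraries had less (exact permutation test, two-sided, p = 0.1, again the lower limit).

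Hnrnpl, which binds CA-rich RNA, was the most abundant regulator, with 105, 105 and 107 FPKM in WT and 96.1, 99.5 and 94.0 FPKM in KO. The groups did not overlap, yet the log2 fold change of -0.13 ± 0.049 barely passed (adjusted p = 0.0409, edgeR). It was lost without a filter on low counts (adjusted p = 0.0783) and in 5 of the 6 fits that leave out a library (adjusted p up to 0.139). Khdrbs1 had 57.4, 57.3 and 57.6 FPKM in WT and 44.5, 45.7 and 45.2 FPKM in KO. The libraries of each genotype lay very close together and far from the other genotype. Its log2 fold change was -0.35 ± 0.049 (adjusted p = 6.3e-05, edgeR), or 1.27-fold lower, while the median of its chromosome 4 was 0.019. Adar, Dhx9, Khdrbs1 and Mbnl1 kept their calls under every alternative that was run.

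**Figure D2:**
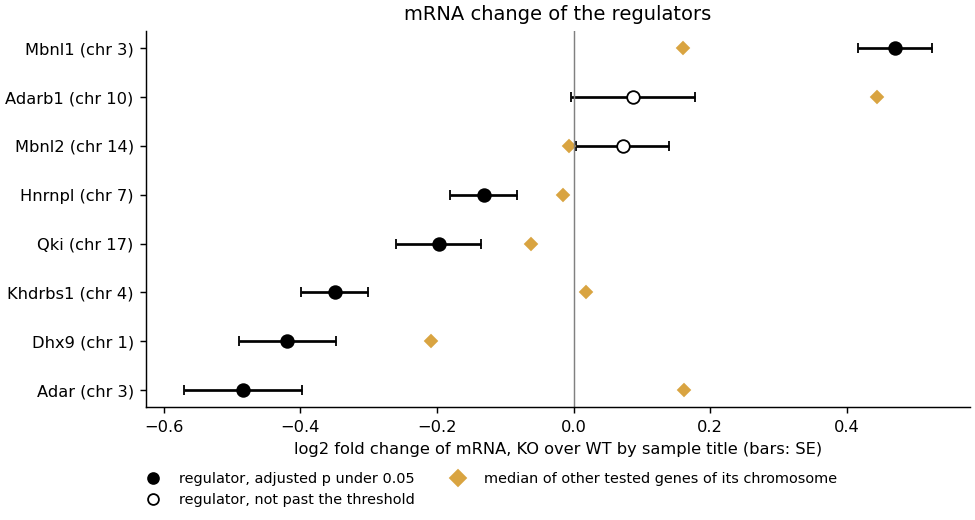
Points show the mRNA log2 fold change of each regulator, KO over WT by sample title, with bars of 1 SE, filled where the adjusted p is under 0.05, and diamonds show the median of the other tested genes of the same chromosome. Adar lies at -0.48 with its chromosome at 0.16, whereas Adarb1 lies at 0.087 with its chromosome at 0.45, and all signs would turn if the headings inside the tables were right.

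Related proteins were read from the same fit. Of 5 paralogs of the regulators (Adarb2, Mbnl3, Khdrbs2, Khdrbs3 and Hnrnpll), only Hnrnpll had enough reads to be tested, and it was lower in KO, at 13.1 ± 0.32 FPKM in WT and 11.4 ± 0.40 FPKM in KO (SD, n = 3, adjusted p = 0.0083, edgeR). The other 4 were below 0.1 FPKM in either genotype on average. Of 13 other RNA-binding proteins described as acting on splicing or back-splicing, 12 were tested, 7 were lower, none was higher and 5 did not pass, beside 23.6% lower and 25.1% higher among all tested genes, with a median log2 fold change of -0.20. The largest changes were in Nova2 (-0.87), a neuronal splicing factor with 0.840 FPKM in WT, and in Hnrnpa1 (-0.49), Sfpq (-0.36), Hnrnpm (-0.29), Rbfox2 (-0.25) and Celf1 (-0.24). Hnrnpa1 and Hnrnpm encode abundant nuclear ribonucleoproteins that bind pre-mRNA. Hnrnpk, Ilf2, Nudt21, Ptbp1 and Rbm20 did not pass, with log2 fold changes between -0.11 and 0.016.

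Did the regulator genes make circRNAs? Reads across back-splice junctions came from 6 of the 8, and no circRNA of Adarb1 or Hnrnpl was among the lists analysed here. The paper, however, imaged a circRNA of Adarb1 in NIH/3T3 WT and KO cells by fluorescence in situ hybridization. Absence from the lists thus does not show that a gene made none. Among all genes tested by mRNA-seq, 30.9% had a circRNA, and among the 484 with at least 90 FPKM in WT, as Hnrnpl has, 23.6% did. Dhx9 and Khdrbs1 each had 8 circRNAs, Mbnl1 5, Mbnl2 and Qki 4, and Adar 2, against a median of 2 over 4889 host genes. Both ends met annotated exon edges in all 31, and the spliced length was 242 to 1702 nt with a median of 607 nt, against 517.5 nt for all exonic circRNAs. Ends were used repeatedly. Of the 8 circRNAs of Khdrbs1, 6 began at the acceptor of exon 2, and so did 4 of the 8 of Dhx9, while 3 of the 5 of Mbnl1 ended at the same donor.

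**Figure D3:**
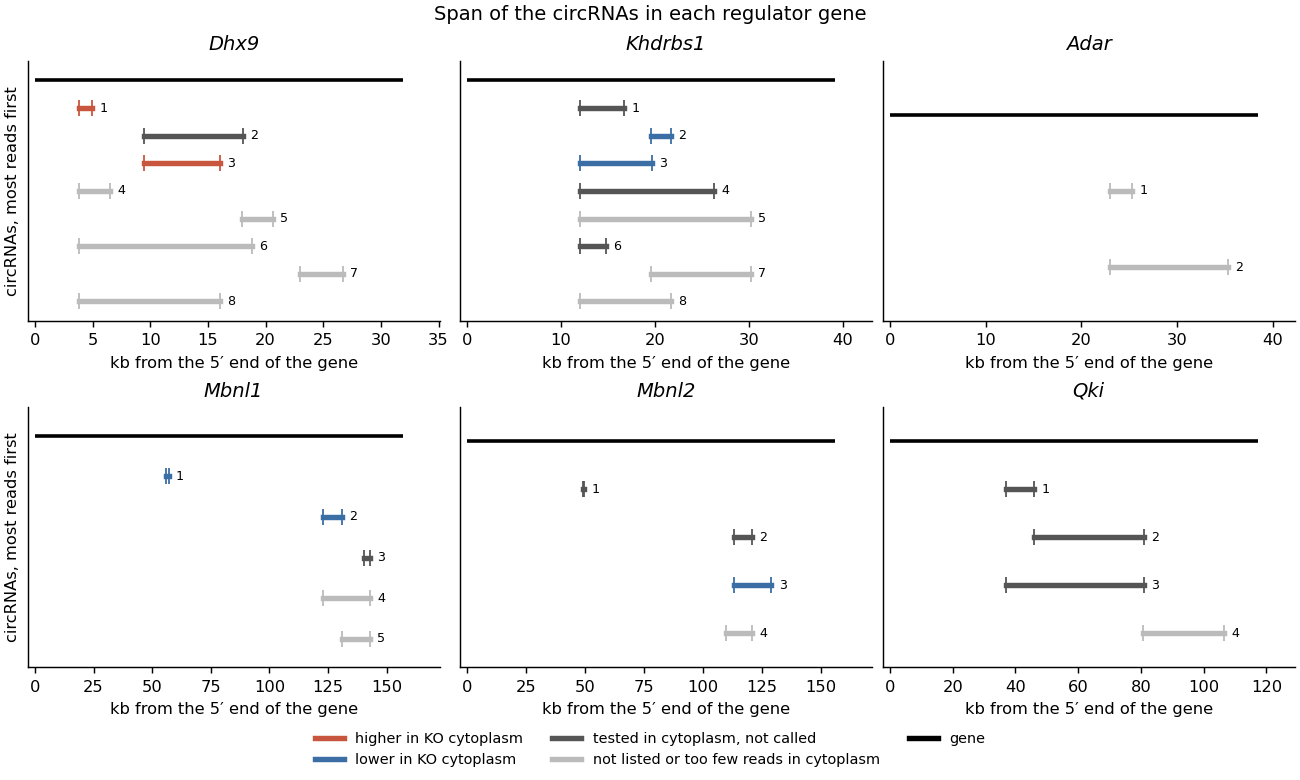
Horizontal bars span each circRNA along its gene (kb from the 5′ end, gene in black), numbered by reads, and are coloured by the cytoplasmic comparison of KO with WT. Blue (lower in KO) is seen in Mbnl1, Mbnl2 and Khdrbs1 and red (higher) in Dhx9, and bars that begin at the same position share an acceptor.

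More mRNA did not go with more circRNA reads between Mbnl2 and Khdrbs1. Mbnl2 gave 47.5 reads per WT library of total RNA on average at 14.6 FPKM of mRNA, and Khdrbs1 13.5 reads at 57.4 FPKM. In KO it was 56.0 reads at 15.4 FPKM for Mbnl2 and 14.0 reads at 45.1 FPKM for Khdrbs1. The circRNA libraries were treated with RNase R and the mRNA libraries were not, so these values give no share of circular molecules. Of the 31 circRNAs, 25 were listed in total RNA, 18 in Cyto and 4 in Nuc (12.9%, against 7.21% of all circRNAs). Of all 16171 circRNAs, 10700 were listed in total RNA and 9648 in Cyto. Both total RNA and Cyto listed 12 of the 31 (38.7%, against 29.7% of all circRNAs), and 6 of the 31 were listed in Cyto and not in total RNA (19.4%, against 30.0%). A list holds only circRNAs above a minimum, with at least 3 reads over the 4 libraries in Nuc, 5 in Cyto and 4 in total RNA, so that a circRNA not listed is not shown to be absent.

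In the cytoplasm, summed circRNA reads of Mbnl1, Khdrbs1 and Qki were lower in KO and those of Dhx9 were higher. Not every circRNA of a gene followed its sum, as given below. For reads summed over the circRNAs of a gene, 4 of 5 regulator genes tested passed (adjusted p under 0.05), 1 higher and 3 lower, beside 46.0% of 3615 host genes (25.1% higher and 20.9% lower). Since the KO libraries of Cyto held fewer junction reads, reads per 10000 junction reads of the library are also given for Mbnl1 and Dhx9. On this scale, and with the TMM scaling of the test, a value is relative to the other circRNAs of its fraction. A shift shared by all circRNAs of a fraction would not show.

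Mbnl1 had 33 and 32 Cyto reads in WT against 5 and 3 in KO. That is 4.07 ± 0.24 per 10000 in WT (SD, n = 2) and 0.731 ± 0.36 in KO, and both KO libraries were far below WT. The log2 fold change was -2.52 ± 0.39 (SE, adjusted p = 0.0014, edgeR), or 5.72-fold lower. Khdrbs1 had 37 and 39 reads in WT against 12 and 13 in KO, 2.18-fold lower (log2 fold change -1.12 ± 0.31, adjusted p = 0.0142, edgeR). Qki had 17 and 18 reads in WT against 3 and 8 in KO, 2.27-fold lower (-1.18 ± 0.39, adjusted p = 0.0299, edgeR). In both genes the replicates of WT lay within 2 reads of each other, above both KO libraries. Dhx9 went the other way, with 13 and 19 reads in WT against 23 and 27 in KO, or 1.995 ± 0.46 and 4.40 ± 0.20 per 10000, 2.17-fold higher (log2 fold change 1.12 ± 0.31, adjusted p = 0.0144, edgeR). Mbnl2 had the most reads and the widest spread, 83 and 36 in WT against 31 and 111 in KO, which overlapped (adjusted p = 0.360). Adar had no circRNA in the Cyto lists. These calls depended on single libraries. Without WT replicate 2 none of the 5 genes passed and no host gene of all did, without WT replicate 1 only Mbnl1 and Khdrbs1 did, and with DESeq2 only Mbnl1 did. Without KO replicate 2 Khdrbs1 did not pass (adjusted p = 0.0574), and without KO replicate 1 Qki did not (0.380) while Mbnl2 did, as higher in KO (0.00346).

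**Figure D4:**
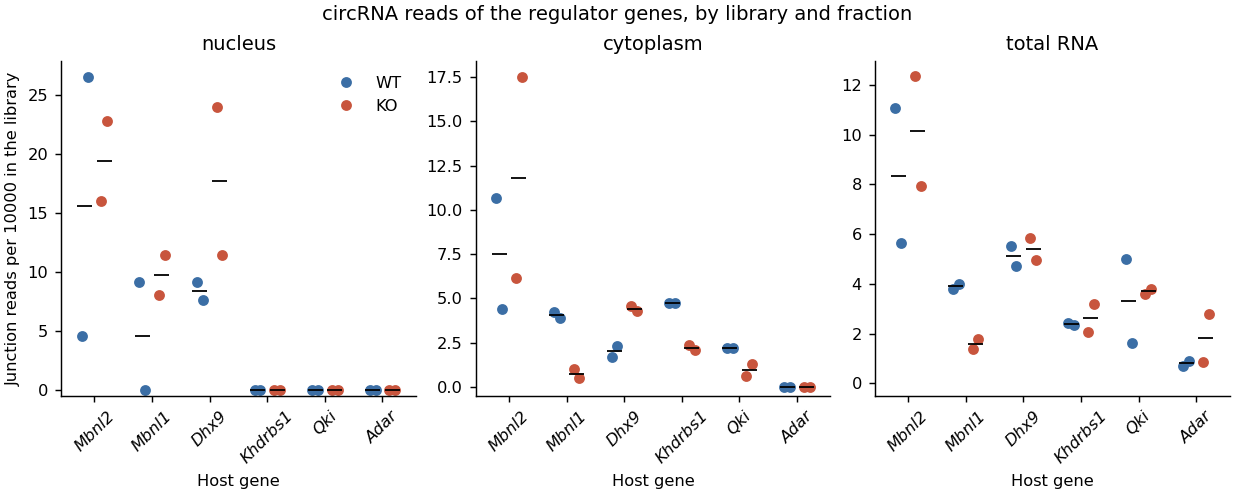
Points are back-splice junction reads of a regulator gene per 10000 junction reads of the library, for 2 WT (blue) and 2 KO (red) libraries in each fraction, with the mean as a line and a linear scale of its own in each panel, and genes with no circRNA listed in a fraction (Khdrbs1, Qki and Adar in Nuc, Adar in Cyto) drawn at 0. In the cytoplasm Mbnl1, Khdrbs1 and Qki lie lower and Dhx9 higher in KO, in total RNA Mbnl1 stands apart, and the replicates of Mbnl2 are widely spread.

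For separate circRNAs in Cyto, 7 of 17 tested passed, 2 higher and 5 lower, beside 53.5% of 8917 (30.0% higher and 23.5% lower). circMbnl1-1, at chr3:60528756-60529804, had 16 and 15 reads in WT against 2 and 1 in KO (log2 fold change -2.74 ± 0.61, adjusted p = 0.00119, edgeR). circMbnl1-2, exons 3 and 4 of its annotated transcript, had 11 in each WT and 1 in each KO library (-2.79 ± 0.67, adjusted p = 0.00204). Both were low in both KO libraries. circMbnl2-3, at chr14:120388900-120404732, had 11 and 12 reads in WT against 1 in each KO library (-2.86 ± 0.66, adjusted p = 0.00164, edgeR). It shares its acceptor with circMbnl2-2, whose 16 and 15 reads in WT against 8 and 21 in KO overlapped (adjusted p = 0.555). circMbnl2-1, the circRNA of exon 2, swung between replicates, with 56 and 9 reads in WT against 22 and 89 in KO (adjusted p = 0.238). Differences among the circRNAs of Mbnl2 were not tested.

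circDhx9-3, which joins exon 12 to exon 6 at chr1:153471620-153478189, had 0 and 2 reads in WT against 9 in each KO library. This was the largest called difference among the regulator circRNAs (log2 fold change 3.53 ± 0.70, adjusted p = 0.000593, edgeR), and the only 1 of the 7 that passed under every alternative run (adjusted p at most 0.0208). Its fold change rests on 2 WT reads, and it reached the 10 reads needed for a test only through its KO reads. circDhx9-2, with the same acceptor and the donor of exon 13, had 4 and 7 reads in WT against 5 and 4 in KO (adjusted p = 0.744). circDhx9-8 went the other way, with 3 reads in each WT library against 1 and 0 in KO, too few to test. circDhx9-1, exons 2 and 3, had 6 and 7 reads in WT against 8 and 14 in KO (log2 fold change 1.28 ± 0.48, adjusted p = 0.0303), and it did not pass without KO replicate 2 or either WT library. circKhdrbs1-2, exons 5 and 6 at chr4:129720652-129722778, had 12 and 10 reads in WT against 2 and 1 in KO (-2.25 ± 0.63, adjusted p = 0.00564). circKhdrbs1-3, exons 2 to 5, had 8 and 7 reads in WT against 1 in each KO library (-2.25 ± 0.72, adjusted p = 0.0195). In contrast circKhdrbs1-1, exons 2 to 4 with the same acceptor, had 8 and 9 reads in WT against 8 and 7 in KO (adjusted p = 0.545). Leaving out KO replicate 2 ended the calls of the 5 lower circRNAs and of circDhx9-1, and without KO replicate 1 only circMbnl1-1 of these 5 passed. circQki-1, exons 2 and 3, had 5 and 7 reads in WT against 0 and 2 in KO and did not pass (adjusted p = 0.0549).

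In total RNA, Mbnl1 was the gene whose circRNA reads differed, in the same direction as in Cyto. It had 22 reads in each WT library and 8 and 9 in KO, 3.90 ± 0.13 and 1.58 ± 0.29 per 10000 (SD, n = 2). Both KO libraries were below WT. The log2 fold change was -1.31 ± 0.31 (adjusted p = 0.0449, edgeR), which made 1 of 6 regulator genes tested, beside 6.8% of 3560 host genes. It was lost when any 1 of the 4 libraries was left out (adjusted p 0.0566 to 0.190), with DESeq2 (0.565) and without a filter on low counts (0.0547). Dhx9 had 32 and 26 reads in WT against 34 and 25 in KO, and Khdrbs1 14 and 13 in WT against 12 and 16 in KO. Neither passed in total RNA (adjusted p = 0.892 and 0.881, edgeR), but the sums of Cyto and of total RNA cover partly different circRNAs. circKhdrbs1-2 and circKhdrbs1-3, which were lower in Cyto, were not listed in total RNA, and circDhx9-5 was listed in total RNA and not in Cyto. The sums therefore do not compare the same circRNAs between these fractions. Qki had 29 and 9 in WT against 21 and 19 in KO, Mbnl2 64 and 31 in WT against 72 and 40 in KO, and Adar 4 and 5 in WT against 5 and 14 in KO, all overlapping between genotypes. The mRNA of Mbnl1 was higher and its circRNA reads were lower in the libraries titled KO. Over the 145 host genes with an mRNA log2 fold change beyond 1, 47.6% had a circRNA log2 fold change in total RNA of the same sign as that of the mRNA, and 52.4% if the headings inside the tables, and not the titles, were right. In Cyto the shares leaned the other way, 54.2% by titles and 45.8% by headings over 118 host genes. In Nuc they were 48.5% and 51.5% over 33.

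None of the 18 regulator circRNAs tested in total RNA passed, as none of all 8903 did (0.0%) by edgeR, although 3405 had an unadjusted p under 0.05 and DESeq2 called 7. circDhx9-3 had 1 and 0 reads in WT against 6 and 3 in KO (unadjusted p = 0.00973, adjusted p = 0.0629), the direction of its change in Cyto. It passed when scaled by total reads (adjusted p = 0.0346) and with size factors over positive counts (0.0491), where many more of all circRNAs passed too. circAdar-1, exons 3 to 6 at chr3:89737990-89740278, had 0 and 3 reads in WT against 4 and 13 in KO (adjusted p = 0.105), and it passed when scaled by total reads (0.0112) and without WT replicate 2 (0.0247). circMbnl1-3 had 5 in each WT and 0 in each KO library (adjusted p = 0.0580), and circMbnl2-2 had 6 and 14 in WT against 24 and 26 in KO (adjusted p = 0.121).

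In the nucleus, 4 regulator circRNAs were listed, from Dhx9, Mbnl1 and Mbnl2. None of 3 tested passed, beside 10.1% of 651 circRNAs, and none of the 3 genes by summed reads, beside 11.3% of 542 (edgeR). By DESeq2 none of all circRNAs or host genes passed, and by edgeR 170 circRNAs had an unadjusted p under 0.05. circDhx9-4, exons 2 to 4, had 2 reads in each WT library and 9 and 5 in KO (log2 fold change 0.83 ± 0.77, adjusted p = 0.517). circMbnl1-1 had 2 and 0 in WT against 3 and 5 in KO (adjusted p = 0.517), circMbnl2-1 had 1 and 6 in WT against 4 and 5 in KO (adjusted p = 0.622), and circMbnl2-2 had 0 and 1 in WT against 2 and 5 in KO, too few to test. Nuclear libraries of KO also held more junction reads, and tests scaled within the fraction do not show a shift shared by all circRNAs. With so few reads, an adjusted p above the threshold does not show that these circRNAs did not differ. For the Nuc/Cyto ratio, tested as the interaction of fraction and genotype, none of the regulators passed, beside 0.0535% of 3738 host genes. Mbnl1 came nearest, with a KO minus WT log2 difference of 3.60 ± 1.02 (SE, unadjusted p = 0.003, adjusted p = 0.228, edgeR), on 10 nuclear reads. Dhx9 had -0.18 ± 0.73 and Mbnl2 -0.53 ± 1.10 (adjusted p = 1.00 in both), and no circRNA of Khdrbs1, Qki or Adar was listed in Nuc.

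The introns next to the circularized exons were searched for elements of the regulators themselves. The QKI element, ACTAAC or ACTAAT on the transcript strand within 300 bases of either exon edge, was found for 3 of 31 circRNAs (9.7%), against 18.8% of 15380 exonic circRNAs. On the opposite strand, as a control, the shares were 25.8% and 25.4%. They belong to circDhx9-5 (31 and 40 bases from the exon edge), circDhx9-7 (188 bases) and circMbnl2-4 (84 bases), and no element was found beside the circRNAs of Qki. MBNL motifs, for which TGCT was counted along with TGCC, and likewise CGCT along with CGCC, numbered a median of 6 per circRNA against 7 for all. Counted on the opposite strand, as a control, the median was 5 for the regulators and 5 for all. A stretch of 15 bases with its reverse complement across the 1000 bases of both introns was present for 4 of 31 (12.9%, against 8.7%), namely circDhx9-1, circDhx9-2, circDhx9-6 and circKhdrbs1-2. A match is a description of letters and not a site of binding or pairing.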

How the data were processed

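The authors aligned mRNA-seq reads with HISAT2 to mm10 (GRCm38) and deposited the count of fragments per gene ID from featureCounts (version 2.0.0, per the file headers), without normalization or strand. They ran find_circ on RNase R-treated libraries and deposited, per library, a circRNA list whose values are the count of reads over each junction. The labels' extraction text speaks of blood, while the cell line is NIH/3T3. Symbols were matched for 54349 of 55401 gene IDs, and Qki is Qk in the annotation (GENCODE M21). CircRNA starts count from 0 in the lists, since 15698 of 16164 lay on an exon start after adding 1. Here circRNAs were given the gene holding both ends, 7 rows with several positions were left without one, absent circRNAs were entered as 0, and FPKM was computed from counts and exonic lengths.

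Counts were tested across all features by the quasi-likelihood functions glmQLFit and glmQLFTest of edgeR (version 4.0.16 in R 4.3.3) after TMM scaling, with genotype as the only term, Benjamini-Hochberg adjustment and a threshold of 0.05, with filterByExpr for genes and at least 10 reads over the libraries of a fit for circRNAs. Nothing says that replicates came from separate cultures, so p-values measure the spread between these samples, which may be technical. Reads are not independent molecules. In every group the replicates were further apart than sampling noise, and none was counted as a copy. The fits were first tested on counts simulated with known changes and an assumed spread. Of 4-fold changes in summed reads per host gene, 27.5% were recovered in Cyto, 33.5% in total RNA and 0% in Nuc. For the Nuc/Cyto ratio 0% of 4-fold and 25.3% of 8-fold changes were recovered. In mRNA 6% of 1.25-fold and 65.5% of 1.5-fold changes were, at an assumed dispersion of 0.01. Yet in the data the same test called Khdrbs1 at 1.27-fold and Qki at 1.15-fold lower. The mRNA shares thus depend on the assumed spread and are not those of the regulators. Changes of the simulated sizes could be missed, but how often in these data is not known. Same-numbered KO and WT libraries did not deviate together (correlations -0.089 to 0.062 in mRNA and -0.071 to 0.046 in circRNAs). Alternatives were DESeq2 (version 1.42.0), other scalings, no filter on low counts, limma (version 3.58.1) on log2(FPKM + 0.5), the replicate number as a block and leaving out each library.

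Members and lists were chosen with earlier results of these data known. Named are all 8 regulators, Xpo4, 5 paralogs, up to 6 called genes of 13 other regulators (further ones are not reported here), the circRNA with most reads of each gene, up to 3 called ones per gene and those listed in Nuc. circMbnl1-3, circDhx9-2, circDhx9-8 and the circRNAs named for intron elements were added after their values were seen, as were the search for paired stretches and the ratios of FPKM. Python 3.11.15 (pandas 2.3.3, scipy 1.17.1, pysam 0.24.0) was used for tables and sequences.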

Additional observations from a re-analysis of the deposited data

Results flagged for a closer look

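circDhx9-1 differed in direction between 2 fractions by reads per 10000 junction reads. Cyto had 0.771 and 0.854 in WT and 1.58 and 2.21 in KO, so that KO was higher by 1.08 on average. Total RNA had 2.25 and 1.996 in WT and 1.89 and 0.795 in KO, a difference of -0.78. On this scale every KO library lay above WT in Cyto and below WT in total RNA. With the TMM factors used in the test, total RNA overlapped, with KO replicate 1 at 1.97 and WT replicate 2 at 1.95, so that a change there is not shown. The difference between the fractions was not tested, the total RNA change did not pass (adjusted p = 0.393, edgeR), and without KO replicate 2 of total RNA it turned to 0.27 on the log2 scale.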

How the results depend on the processing

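Of the 8 regulator mRNAs, 6 passed in edgeR, DESeq2, other scalings and limma, 5 without a filter on low counts, and 4 to 7 with a library left out. With the replicate number as a block, a number that does not pair these samples, 5 passed, Hnrnpl being lost. In Cyto, the 7 circRNAs called became 2 with DESeq2 and 1 to 6 with a library left out, and the 4 genes called by summed reads became 1 with DESeq2, 0 with the replicate block (as for all 3615 host genes) and 0 to 4 with a library left out. In total RNA, the 0 circRNAs called became 5 when scaled by total reads, 3 with size factors over positive counts, 5 with the replicate block (circAdar-1 and circDhx9-3 among them, adjusted p = 0.0109 and 0.0407) and 0 to 1 with a library left out, while calls among all 8903 went from 0 to 2003, 1504 and 2054. The 1 gene called there became 0 with DESeq2, without a filter and with any library left out. Nuclear and Nuc/Cyto counts stayed at 0 throughout. The causes were not tested. Summed nuclear reads of Mbnl2 turned from a log2 fold change of -0.00086 to 0.14 when scaled by total reads and 0.059 without a filter. Leaving out a library also turned values that had not passed. In Nuc these ran from -1.52 to 0.78 for circMbnl2-1, to -0.34 for circMbnl1-1, from -0.85 to 1.57 for Mbnl2 and to -0.36 for Mbnl1. In Cyto they ran from -0.049 to 2.92 for circMbnl2-1, -0.15 to 1.39 for circMbnl2-2, -0.064 to 0.98 for circKhdrbs1-1 and -0.30 to 1.42 for Mbnl2. In total RNA they ran from -1.93 to 0.68 for circMbnl2-1, -1.11 to 0.27 for circDhx9-1, -0.20 to 0.80 for Mbnl2, -0.057 to 0.42 for Khdrbs1, -0.12 to 0.34 for Dhx9 and -0.54 to 1.10 for Qki. For the Nuc/Cyto ratio they ran from -1.28 to 1.39 for Mbnl2 and -0.71 to 0.22 for Dhx9. The nuclear fits rested on 10 to 24 reads per tested gene.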
